A study of Rattus norvegicus with 6 samples.

Results

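The genes described here encode the constitutive proteasome. They were taken from the expression tables by name: the symbol had to begin with *Psma*, *Psmb*, *Psmc*, *Psmd*, *Psme* or *Psmg* and go on with a digit, and the immunoproteasome genes *Psmb8*, *Psmb9* and *Psmb10* were left out. This took 45 of 17315 rows and used no measured value. By their known roles, 16 are genes of the core, 17 of the cap, 4 of activators and 6 of assembly chaperones. The remaining 2 are *Psma3l*, a second row that RefSeq now lists under *Psma3*, and *Psmc3ip*, a gene of meiotic recombination that encodes no proteasome subunit. A row for the chaperone gene *Psmg3* was not analysed here.

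The proteasome is the protease complex that degrades ubiquitin-tagged proteins. Its barrel-shaped core is built of alpha rings, which form the gate, and beta rings, which hold the catalytic sites. The cap binds tagged proteins, removes the ubiquitin and unfolds them with a ring of ATPases, while activators are other complexes that can open the same gate. Derlin-1, the protein of the targeted gene *Derl1*, sits in the membrane of the endoplasmic reticulum and takes part in moving misfolded proteins to the cytosol, where the proteasome degrades them.

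The samples are cultures of HCN cells, a neural stem cell (NSC) line grown from rat hippocampus, transfected with a control duplex (siControl, n = 3) or a duplex against *Derl1* (siDerl1, n = 3). All 6 had BMP4 for 2 days, which brings these cells to quiescence, so no proliferating or untreated culture stands beside them. There was a single duplex for each target and a single cell line, and nothing says how far the 3 samples of a group were separate cultures, so that p-values measure only the spread between these samples. Expression was measured by poly(A) RNA-seq and is given in TPM, a share of all transcripts that is corrected for transcript length and sums to the same total in every sample.

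Between 11641 and 11808 genes had a value above 0 in a sample, and the depth is unknown because TPM keeps none. *Derl1* was 122, 132 and 128 TPM in the siControl samples and 44.9, 70.8 and 74.0 TPM in the siDerl1 samples. The groups did not overlap, and the log2 fold change was -1.03 (SE 0.18). Across all genes limma gave *Derl1* an adjusted p of 0.497. It was 0.00884 with the sample number as a block, but 0.230 when the block was fitted without an intensity trend and 0.104 when it was fitted without the filter on low values. Without both samples numbered 1 the log2 fold change was -0.83 (adjusted p = 0.00696). The exact two-sided permutation test gave p = 0.1, the smallest that 3 against 3 samples can reach. Of the markers of neural stem cells, 5 of 5 had a mean of at least 1 TPM. The same held for 3 of 5 astrocyte, 2 of 5 neuron, 2 of 8 microglia and 0 of 4 endothelial markers, and the summed level of each of these lists overlapped between the groups (microglia 5.01 to 9.36 TPM in siControl and 5.80 to 7.96 TPM in siDerl1). Single markers without overlap were *Nes* (113 to 137 TPM in siControl, 99.4 to 111 TPM in siDerl1), *Dcx* (8.83 to 10.95 and 6.38 to 7.63 TPM) and, higher in siDerl1, *Tubb3* (58.8 to 74.9 and 76.25 to 83.2 TPM). Their part in the results was not tested.

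The promoter sequences below belong to the genes on which the results turn. They come from RefSeq (build GRCr8), 5′ to 3′ on the strand of the gene, and hold bases before the annotated start. Windows from 250 bases before to 50 after the start were found for 39 of the 45 genes and searched on both strands for 4 motifs. These were the antioxidant response element (ARE, TGACNNNGC), the CCAAT box, the gamma-activated sequence (GAS, TTCNNNGAA, the same on either strand) and the interferon-stimulated response element (ISRE, here GAAA, 2 bases, GAAA). Capitals mark the motifs found. The activator genes come first, with the immunoproteasome gene *Psmb10* for comparison, each with the 120 bases before the start.
*Psme1* (chr15:33038851-33038970, plus strand): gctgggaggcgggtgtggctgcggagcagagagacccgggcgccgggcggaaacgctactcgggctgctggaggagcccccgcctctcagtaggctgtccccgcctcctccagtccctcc
*Psme2* (chr15:33052752-33052871, minus strand): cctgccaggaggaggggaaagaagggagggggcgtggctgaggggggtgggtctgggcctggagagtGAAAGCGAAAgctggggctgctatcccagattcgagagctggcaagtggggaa
*Psme3* (chr10:86757813-86757932, plus strand): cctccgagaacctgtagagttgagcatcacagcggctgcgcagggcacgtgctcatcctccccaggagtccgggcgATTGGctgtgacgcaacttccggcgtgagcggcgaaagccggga
*Psme4* (chr14:108706523-108706642, plus strand): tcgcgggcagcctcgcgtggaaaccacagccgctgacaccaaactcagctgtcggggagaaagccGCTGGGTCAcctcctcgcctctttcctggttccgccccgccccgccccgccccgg
*Psmb10* (chr19:50743293-50743412, minus strand): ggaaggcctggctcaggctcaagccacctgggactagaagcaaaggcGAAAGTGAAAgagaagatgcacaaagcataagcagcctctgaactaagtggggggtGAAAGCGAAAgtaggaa
Among these, *Psme2* held 1 ISRE and *Psmb10* held 2, *Psme3* a CCAAT box on the other strand and *Psme4* an ARE on the other strand, while *Psme1* held none of the 4 motifs in the printed stretch.

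The next stretches come from the 3 cap genes with the smallest p in the siRNA comparison, and are 120 bases each, ending 131 bases before the start in *Psmc6*, 61 in *Psmd1* and 1 in *Psmc2*.
*Psmc6* (chr15:21022064-21022183, plus strand): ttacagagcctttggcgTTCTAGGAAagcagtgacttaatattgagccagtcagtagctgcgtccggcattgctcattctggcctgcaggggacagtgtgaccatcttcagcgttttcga
*Psmd1* (chr9:94157791-94157910, plus strand): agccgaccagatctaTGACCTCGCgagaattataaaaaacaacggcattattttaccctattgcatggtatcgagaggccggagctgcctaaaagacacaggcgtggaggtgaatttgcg
*Psmc2* (chr4:14162391-14162510, minus strand): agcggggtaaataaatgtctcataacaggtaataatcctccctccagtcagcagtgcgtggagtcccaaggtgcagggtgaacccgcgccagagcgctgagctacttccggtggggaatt
*Psmc6* held a GAS, *Psmd1* an ARE and *Psmc2* none of these motifs in the printed stretch. Counted from the start, these matches begin at -233 in *Psmc6* and -165 in *Psmd1*, and the stretches shown are those that hold them. In both genes the 120 bases just before the start held none of the 4 motifs. Over all windows of the constitutive genes, 8 of 39 held an ARE (20.5%, against 12.1% of 33469 RefSeq windows) and 18 a CCAAT box (46.2% against 37.5%). A GAS stood in 3 (7.69% against 8.87%) and an ISRE in 5 (12.8% against 3.92%), *Psma4*, *Psmb3*, *Psmd7*, *Psme2* and *Psmg4*. In *Psmb2* the ARE and a CCAAT box share a base. A match describes these letters only.

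Constitutive proteasome genes were among the more abundant transcripts of these cells. Together they took 0.896%, 0.920% and 0.930% of the TPM in the siControl samples and 0.822%, 0.882% and 0.939% in the siDerl1 samples. The lowest and the highest share both came from siDerl1, so the groups overlapped. In bulk samples, fewer cells of a type and less RNA per cell cannot be told apart. Of the 45 genes, 43 had a mean of at least 1 TPM and were tested. The other two were *Psma8*, the alpha subunit known from testis, listed at 0 in every sample, and *Psmb11*, the beta subunit known from thymus, which lay between 0 and 0.09 TPM. The median coefficient of variation over the 6 samples was 6.89% for the 43 genes. It was 10.8% over all 10331 genes tested, and 6.89% again over the 1925 genes with a mean of at least 100 TPM.

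**Figure D1:**
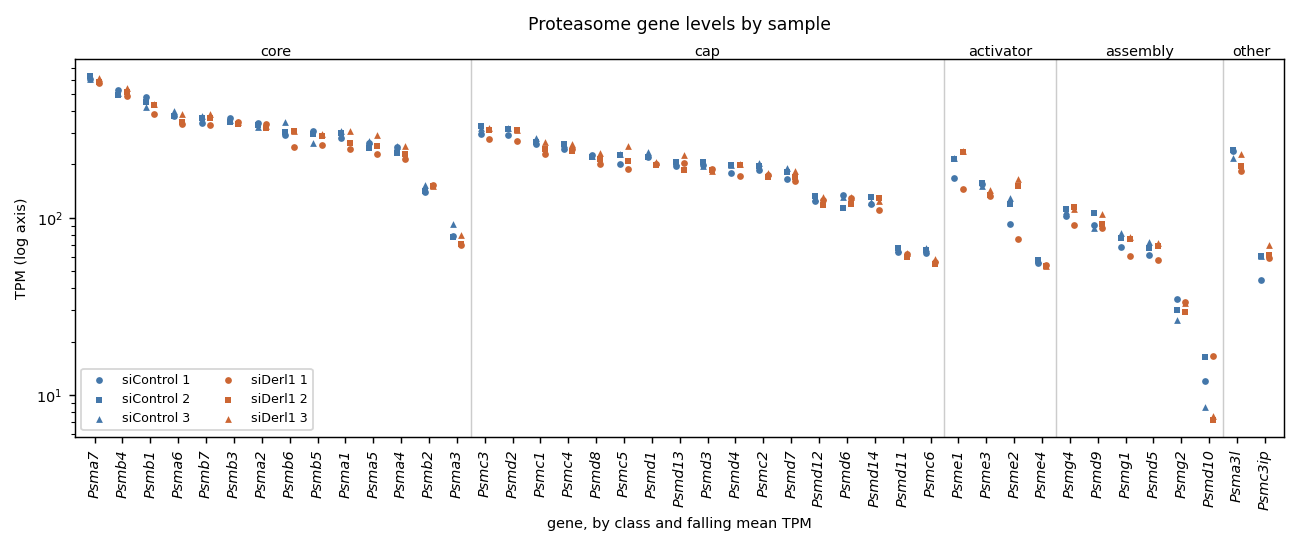
TPM (log axis) of the 43 tested genes by class and falling mean level; blue stands for siControl and orange for siDerl1, and circle, square and triangle for samples 1, 2 and 3. Core genes ran from 78.4 TPM for *Psma3* to 605.5 TPM for *Psma7* in the mean, and the symbols of the 2 groups mostly overlap.

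Core genes had the highest levels. The highest mean was that of *Psma7*, an alpha ring subunit, which was 609.8, 632 and 606 TPM in siControl and 579.5, 585 and 619.6 TPM in siDerl1 and led the core in each of the 6 samples. *Psmb4* and *Psmb1*, both of the beta ring, took the second and the third place in each sample. The lowest was *Psma3*, another alpha ring gene, with 79.1, 77.7 and 92.05 TPM in siControl and 70.4, 71.4 and 80.0 TPM in siDerl1. Highest and lowest differed 7.72-fold, although the core holds each subunit in the same number. The level of *Psma3* has a limit: *Psma3l*, at 218 TPM in the mean, may share its reads. Summed over both rows, siControl had 317, 320.5 and 311 TPM and siDerl1 255, 268 and 309 TPM, so that all siDerl1 sums lay below all siControl sums. The sum was not tested.

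The cap genes that the rule took by symbol spanned 5.08-fold, from *Psmc3* at 309.5 TPM to *Psmc6* at 61.0 TPM in the mean, both ATPases of the same ring. The cap subunits *Shfm1* and *Adrm1*, at 447 and 245.8 TPM in the mean, have other symbols and were counted with the partner genes. Activators spanned 3.66-fold, from *Psme1* to *Psme4*. The assembly chaperones were the lowest class and spanned 9.44-fold, from *Psmg4* at 107 TPM to *Psmd10* at 11.4 TPM, and the order of the 6 genes was the same in every sample.

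In the comparison of siDerl1 with siControl, no constitutive proteasome gene passed the adjusted test. The lowest adjusted p that limma gave to any of the 43 was 0.704, so 0 were called at 0.05. The same fit called 0 of all 10331 genes tested, with a lowest adjusted p of 0.332, so this count does not set the proteasome genes apart. Unadjusted, 4 of 43 had a p under 0.05 and were lower in siDerl1, beside a background of 4.03% of all genes tested and 5.77% of those with a mean of at least 100 TPM, and 0 were higher, beside 2.67%. The 4 were the cap genes *Psmc2*, *Psmc6* and *Psmd1* and the activator *Psme3*. The count depended on single samples, being 2 without siControl 2, 1 without siControl 3, 0 without siDerl1 2 and 8 without siDerl1 3. The share of all genes in these fits is not given here, so whether the swing is particular to this set cannot be told. With the sample number as a block it was 10, against 8.88% of all genes and 14.65% of those with a mean of at least 100 TPM, and 1 gene was higher, *Psmc3ip*, against 6.84%. The blocked fit called 0 of 43 after adjustment (lowest adjusted p = 0.167) and 0.552% of all genes. The fold limits of the study, above 1.5 or below 0.8 with an unadjusted p under 0.05, took 0 of 43 genes and 1.91% of all genes.

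The differences were small. Log2 fold changes ran from -0.26 for *Psmd10* to 0.21 for *Psmc3ip*, and 35 of 43 were below 0, beside 5657 of 10331 over all genes. *Psmc3ip* encodes no subunit, and among the core, cap, activator and assembly genes the highest was 0.14 for *Psme2*. The median was -0.051 for the core, where 12 of 14 genes were below 0, and -0.056 for the cap, with 15 of 17. It was -0.031 for the activators, with 2 of 4, and -0.036 for the assembly chaperones, with 5 of 6, while the median of all genes was -0.016. For 41 of 43 genes the 95% interval of the difference stayed within 1.5-fold either way, the exceptions being *Psme2* and *Psmd10*. The background was 7720 of 10331 genes, and 1814 of the 1925 with a mean of at least 100 TPM. For 32 of 43 the interval stayed between 0.8-fold and its reciprocal, which were 11 of 14 core, 16 of 17 cap, 2 of 4 activator and 3 of 6 assembly genes. Here the background was 3662 of 10331 genes, and 1370 of the 1925 with a mean of at least 100 TPM.

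**Figure D2:**
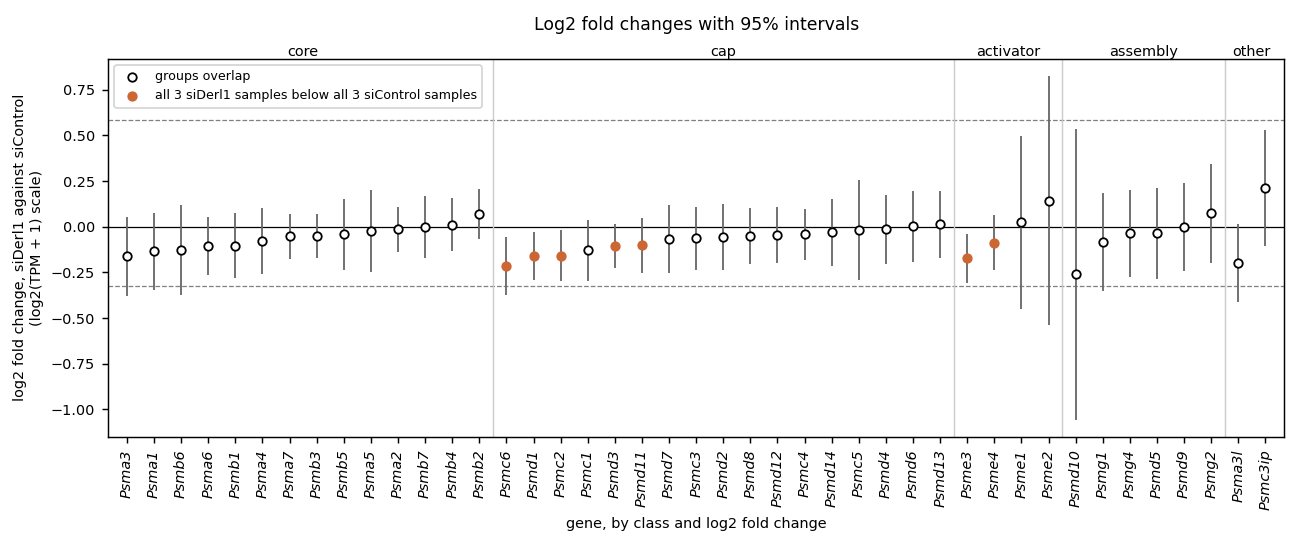
Log2 fold change of siDerl1 against siControl (log2(TPM + 1) scale) for the 43 tested genes, with 95% intervals from limma; dashed lines stand at 1.5-fold and 0.8-fold. Filled points mark the 7 genes in which all 3 siDerl1 samples lay below all 3 siControl samples.

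Groups that did not overlap were counted as a description. In 7 of 43 genes all siDerl1 samples lay below all siControl samples, where the background was 8.52% of all genes and 10.96% of those with a mean of at least 100 TPM. In 0 genes they lay above, where the background was 5.09%. The 7 were 5 of the cap, *Psmc2*, *Psmc6*, *Psmd1*, *Psmd3* and *Psmd11*, and the activators *Psme3* and *Psme4*. *Psmc2*, *Psmd1*, *Psmd3* and *Psmd11* were named after their values were seen. No core or assembly gene was among them.

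Within the core, summed levels were 4665, 4601 and 4683 TPM in siControl and 4228, 4472 and 4744 TPM in siDerl1. The siDerl1 samples spread wider and lay on both sides of siControl. The groups overlapped in the catalytic subunits too, but only in *Psmb7* did siDerl1 values lie on both sides of siControl. *Psmb5*, which cuts after hydrophobic residues, was 308, 297 and 264 TPM in siControl and 257, 291 and 296 TPM in siDerl1. *Psmb6*, which cuts after acidic residues, was 293, 306 and 348.5 TPM in siControl and 250.2, 308 and 310.2 TPM in siDerl1. *Psmb7*, which cuts after basic residues, was 342, 367 and 375 TPM in siControl and 333, 366 and 386 TPM in siDerl1. Their log2 fold changes were -0.042 (SE 0.084), -0.13 (SE 0.10) and -0.00025 (SE 0.072), none of them past the test. The lowest log2 fold change in the core was that of *Psma3*, at -0.16 (SE 0.091, adjusted p = 0.772), and the highest that of the beta ring gene *Psmb2*. *Psmb2* was 140.3, 141 and 153 TPM in siControl and 154, 151 and 151 TPM in siDerl1, a log2 fold change of 0.070 (SE 0.059).

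In the cap, summed levels were 3173, 3340 and 3392 TPM in siControl and 2995, 3125 and 3337 TPM in siDerl1. The core sum was 1.41 times the cap sum in siControl and 1.42 times in siDerl1, as means of 3 samples. This cap sum leaves out *Shfm1* and *Adrm1*. *Psmc6*, an ATPase of the base that threads proteins into the core, had the largest difference of the class. It was 63.4, 65.6 and 67.7 TPM in siControl and 55.9, 54.6 and 58.65 TPM in siDerl1, so that the siDerl1 range ended below the siControl range. The log2 fold change was -0.21 (SE 0.068, unadjusted p = 0.0153, adjusted p = 0.704), with a mean of 65.6 TPM against 56.4 TPM. *Psmd1*, a large scaffold subunit of the base, was 219.9, 221 and 236 TPM in siControl and 201, 198 and 206 TPM in siDerl1. *Psmc2*, a further ATPase, was 185, 195 and 205 TPM in siControl and 174, 171 and 178 TPM in siDerl1. Both had a log2 fold change of -0.16, with an SE of 0.056 for *Psmd1* and 0.060 for *Psmc2*, and neither passed the adjusted test. The other cap genes without overlap, the lid subunits *Psmd3* and *Psmd11*, differed by -0.11 and -0.10.

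*Psmc1*, an ATPase named after its values were seen, was 260.3, 268 and 282 TPM in siControl and 230.0, 245 and 267 TPM in siDerl1, with a log2 fold change of -0.13 (SE 0.071) and groups that overlapped. *Psmd4*, a receptor for ubiquitin chains, was 179, 199 and 199 TPM in siControl and 173, 198 and 202 TPM in siDerl1. *Psmd14*, the lid enzyme that removes ubiquitin, was 120.0, 130.2 and 122 TPM in siControl and 111, 130 and 124.5 TPM in siDerl1. In both genes the first siDerl1 sample was the lowest and the groups overlapped. *Psmc3*, an ATPase, was 299, 328 and 321 TPM in siControl and 277, 311 and 320.3 TPM in siDerl1. *Psmc5*, also an ATPase, was 200.4, 227 and 230.3 TPM in siControl and 188, 211 and 256 TPM in siDerl1, holding both the lowest and the highest value in siDerl1. *Psmd13*, a lid subunit, had the highest log2 fold change of the class, with 197, 206 and 207 TPM in siControl and 203, 187 and 227 TPM in siDerl1. It was 0.013 (SE 0.079) on the log2 scale.

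Activators open the core without the cap. *Psme3*, which forms the nuclear activator, was 154, 157.5 and 152 TPM in siControl and 133, 135 and 143 TPM in siDerl1. The groups did not overlap, siDerl1 being lower, and the log2 fold change was -0.17 (SE 0.057, unadjusted p = 0.0180, adjusted p = 0.704). *Psme4*, the large activator of a single chain, was 55.8, 57.8 and 57.9 TPM in siControl and 54.4, 53.3 and 53.6 TPM in siDerl1, also without overlap, and differed by -0.087 (SE 0.064). *Psme1* and *Psme2* form a joint ring, which interferon-gamma is known to induce. *Psme1* was 167, 214 and 217 TPM in siControl and 145, 234 and 239.8 TPM in siDerl1. *Psme2* was 91.7, 119.6 and 129 TPM in siControl and 75.7, 152 and 166 TPM in siDerl1. In both genes sample 1 of each group was the lowest and the siDerl1 values lay on both sides of siControl. Their log2 fold changes were 0.024 (SE 0.20) and 0.14 (SE 0.29), and the widest 95% interval of the class, -0.54 to 0.83, was that of *Psme2*.

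**Figure D3:**
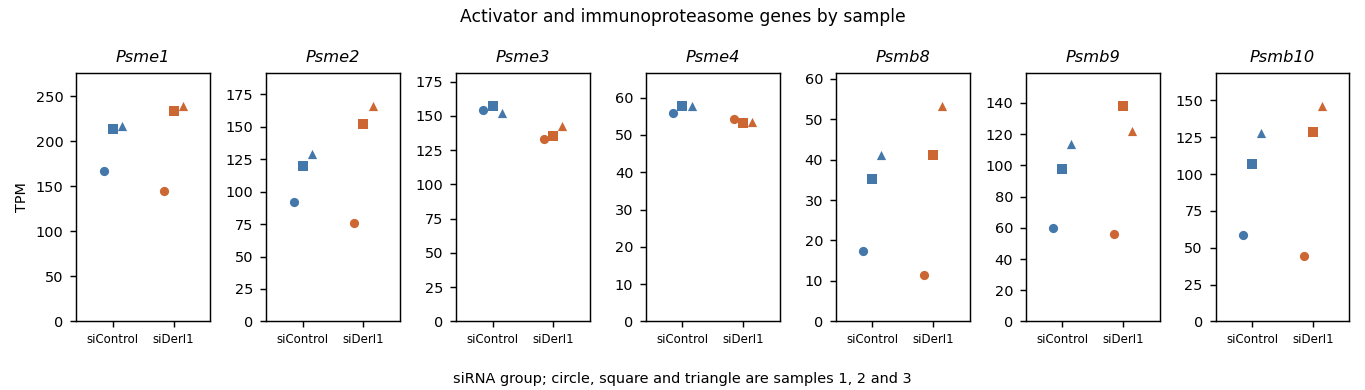
TPM of the 4 activator genes and, for comparison, the 3 immunoproteasome genes in siControl and siDerl1, with circle, square and triangle for samples 1, 2 and 3 and axes that start at 0. *Psme1*, *Psme2* and the immunoproteasome genes were lowest in sample 1 of each group, whereas *Psme3* and *Psme4* were not and had groups that did not overlap.

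Of the assembly chaperones, *Psmd10* had the widest relative spread. *Psmd10*, which holds an ATPase of the base, was 11.9, 16.4 and 8.54 TPM in siControl and 16.6, 7.25 and 7.62 TPM in siDerl1. Its samples crossed over between groups, its log2 fold change of -0.26 had an SE of 0.34, and its 95% interval ran from -1.06 to 0.54. *Psmg1* and *Psmg2* form the pair that starts the alpha ring. *Psmg1* was 68.5, 76.8 and 81.7 TPM in siControl and 61.1, 75.8 and 78.0 TPM in siDerl1, and *Psmg2* was 34.6, 30.2 and 26.6 TPM in siControl and 33.6, 29.5 and 32.85 TPM in siDerl1. *Psmg4*, of the same stage, was 103, 113 and 109.9 TPM in siControl and 91.0, 115 and 112.5 TPM in siDerl1. No chaperone had groups that stood apart.

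Samples carry the numbers 1 to 3 in both groups, and the difference within a pair of same-numbered samples was not the same for each number. In pair 1, 38 of 43 genes were lower in siDerl1, beside 47.9% of all genes. In pair 2 there were 33, beside 55.8%, and in pair 3 there were 20, beside 57.3%. The median over all genes was 0.0089, -0.027 and -0.033 for pairs 1, 2 and 3. The core median was -0.16 in pair 1, -0.034 in pair 2 and 0.014 in pair 3. The cap median was -0.088, -0.12 and -0.014 in that order, and the activator median -0.21, 0.0070 and 0.028. Lower in all 3 pairs were 15 of 43 genes (34.9%), with a background of 22.2% of all genes and 28.3% of those with a mean of at least 100 TPM. Without both samples numbered 1 the medians were -0.012 for the core, -0.057 for the cap, 0.012 for the activators and 0.011 for the assembly chaperones, beside -0.030 for all genes.

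**Figure D4:**
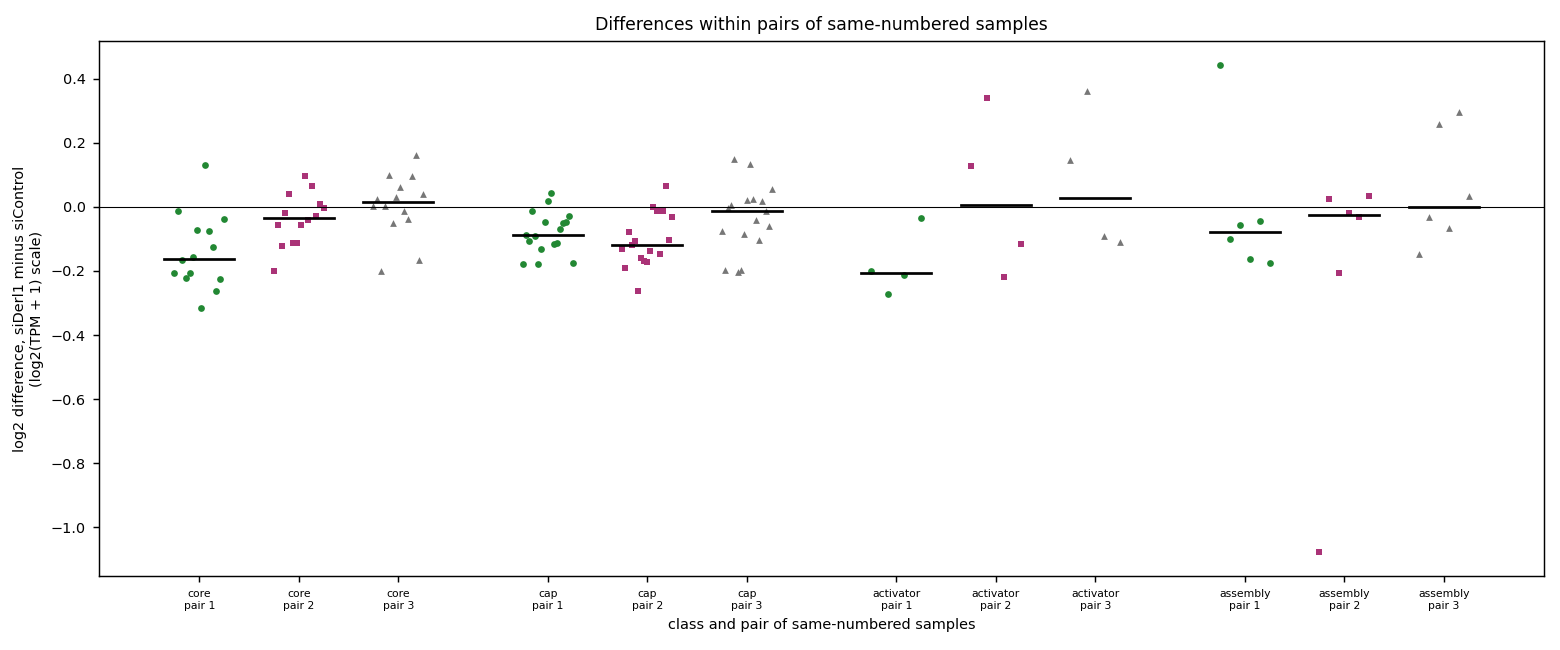
Log2 difference of siDerl1 minus siControl within each pair of same-numbered samples, 1 point a gene, for the 4 classes; the black bar is the median. The core medians are -0.16, -0.034 and 0.014 for pairs 1, 2 and 3, while the cap medians are -0.088, -0.12 and -0.014.

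The sample number was then tested in all 6 samples, with the siRNA in the fit. Called at an adjusted p under 0.05 were 2 of 43 genes, *Psme1* (adjusted p = 0.00614) and *Psme2* (adjusted p = 0.0102), and the background was 10.6% of all genes. Leaving out siControl 1 raised the count to 8, and leaving out siControl 2 or siDerl1 2 to 5. Without an intensity trend 0 genes were called, and without the filter on low values 1. For these alternative fits the share of all genes called is not given here. On the log2 scale the samples numbered 1 lay lower than the other 4 by 0.53 for *Psme1* and 0.75 for *Psme2*. Both samples numbered 1 lay below the other 4 in 14 of 43 genes, where the background was 17.0% of all genes and 19.4% of those with a mean of at least 100 TPM. They lay above in 2, *Psma2* and *Psmg2*, where it was 15.7%. The 14 included the catalytic genes *Psmb6* and *Psmb7*, 6 cap genes, 3 assembly genes and *Psmc3ip*. Markers also separated the samples numbered 1 from the other 4. The summed neural stem cell markers were 3963 and 4388 TPM in the former and 5498 to 5822 TPM in the latter, but this was the difference in *Vim* (3008 and 3386 TPM against 4644 to 5044 TPM). Of the other 4 genes of the list none was below and *Fabp7* was above. The summed astrocyte markers were 779 and 822 TPM against 560.5 to 594 TPM, with *S100b* above and *Slc1a3* below among the 3 genes with a mean of at least 1 TPM, and *Aqp4* and *Aldh1l1* near 0. Of the other lists reported here, the neuron, microglia and endothelial sums overlapped. The part of these markers in the result was not tested. Among the 43 constitutive genes, the next smallest adjusted p values for the number were 0.0585 for *Psmc5* and 0.0647 for *Psmb6*.

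The immunoproteasome genes were lowest in the samples numbered 1 as well. *Psmb8* was 17.3, 35.1 and 41.1 TPM in siControl and 11.5, 41.2 and 53.3 TPM in siDerl1, with adjusted p = 0.00157 for the number. Their share of the summed catalytic subunits was 12.6%, 19.8% and 22.2% in siControl and 11.7%, 24.2% and 24.5% in siDerl1. *Psmb9* and *Psmb10* had adjusted p values of 0.00137 and 0.000616 for the number, and none of the 3 had an adjusted p under 0.95 for the siRNA. What the numbers stand for is not given in the labels.

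Genes that work with the proteasome were taken from a list of partners, which also holds the cap subunits *Shfm1* and *Adrm1*. Of 28 that were tested, 0 had an unadjusted p under 0.05 in the siRNA comparison, beside 4.03% of all genes lower and 2.67% higher. Below 0 were 20 and above it 8, beside 5657 of 10331 genes below 0. The median log2 fold change was -0.043, beside -0.016 over all genes. With the sample number as a block, 3 of 28 had an unadjusted p under 0.05 and were lower (*Ufd1l*, *Nploc4* and *Ubqln4*), beside 8.88% of all genes. *Pomp*, the maturation factor of the core, was 541.5, 580.3 and 652 TPM in siControl and 543, 590.3 and 619 TPM in siDerl1, with groups that overlapped. *Psmf1*, an inhibitor of the core, was 55.7, 73.8 and 70.8 TPM in siControl and 59.2, 78.7 and 76.1 TPM in siDerl1, and was called for the sample number (adjusted p = 0.0165). Without the block, the smallest p values for the siRNA were those of *Nploc4*, a cofactor of the segregase Vcp, and *Usp14*, a ubiquitin protease of the cap, at 0.0723 and 0.0758 unadjusted. *Usp14* was 74.5, 75.3 and 74.35 TPM in siControl and 62.5, 70.2 and 69.8 TPM in siDerl1. *Nfe2l1*, a regulator of proteasome genes, was not analysed here.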

How the data were processed

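Poly(A) RNA-seq of 6 samples, 3 siControl and 3 siDerl1, was analysed. The values the authors deposited are TPM with 2 decimals, made with Trimmomatic 0.39, STAR 2.7.3a and RSEM 1.3.2 on rn6 (the submitters' processing notes also name edgeR 3.28.1). Depth per sample is unknown, since TPM keeps none, and no counting error can be given.

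Groups and sample numbers came from the labels. limma 3.58.1 (R 4.3.3) was fitted on log2(TPM + 1) over the 10331 of 17315 genes with a mean of at least 1 TPM, with an intensity trend and Benjamini-Hochberg adjustment over all of them. Fold changes on this scale understate low genes. The sample number was tested with limma's F-test. Same-numbered samples deviated together from their group means (correlations over genes of 0.70, 0.35 and 0.51, all above 0.1), so the number was taken to pair them and was fitted as a block in an alternative. Samples 2 and 3 were hardly told apart, since siControl 2 with siDerl1 3 gave 0.34 and siControl 3 with siDerl1 2 gave 0.25. The other alternatives were a pseudocount of 0.1, no filter, a mean of at least 5 TPM, median-of-ratios scaling, no intensity trend and each sample left out.

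The members, classes and lists were chosen with earlier results of these data known. Named were *Derl1*, the catalytic subunits, all activators and *Psmg* genes, *Psmd4*, *Psmd14* and in each class the genes with the highest and lowest mean, the largest rise and fall and the smallest p values, with members called and a few partner genes. By accession, 41 of 45 genes matched RefSeq GRCr8, and promoters come from that build, not from rn6. A further marker list is not reported here.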

Additional observations from a re-analysis of the deposited data

How the results depend on the processing

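The count of constitutive proteasome genes called in the siRNA comparison was 0 in each fit run, and the main fit called 0 of all 10331 genes tested. The count lower at an unadjusted p under 0.05 was 4, and became 2 without an intensity trend, 10 with the replicate block, 1 with the block and no trend, 9 with the block and no filter, and 0 to 8 with samples left out. The count higher was 0, and became 1 with the block, 1 with the block and no filter, and 0 to 2 with samples left out, the 2 coming from the fit without both samples numbered 1. The number term called 2 genes, 1 without a filter, 0 without a trend and 2 to 8 with samples left out. Counts over all genes in the fits with samples left out are not given here. With samples left out, the assembly median ran from -0.089 to 0.046, the activator median from -0.10 to 0.082, the core median from -0.098 to -0.012 and the cap median from -0.10 to -0.023. The lowest core and cap values came without siDerl1 3. For *Derl1* the log2 fold change was -1.03 with the block (adjusted p = 0.00884) and -0.83 without both samples numbered 1 (adjusted p = 0.00696), both past the threshold. The block lost that call without an intensity trend (adjusted p = 0.230) and without the filter (adjusted p = 0.104). The log2 fold change ran from -1.16 to -0.80 with single samples left out. The block changed no other adjusted siRNA call printed here. Both block combinations and the fit without the samples numbered 1 were chosen after seeing the data. Signs of small differences turned with the samples left out: *Psme1* ran from -0.10 to 0.26, *Psme2* from -0.066 to 0.50, *Psmg1* from -0.15 to 0.026, *Psmg2* from -0.018 to 0.17, *Psmg4* from -0.099 to 0.071, *Psmc5* from -0.14 to 0.084, *Psmd4* from -0.065 to 0.054, *Psmd13* from -0.059 to 0.079, *Psmd14* from -0.080 to 0.036, *Psmb5* from -0.11 to 0.067 and *Psmb7* from -0.049 to 0.058. With median-of-ratios scaling *Psmc5* was 0.0024, *Psmd4* 0.0042 and *Psmb7* 0.018. The cause was not tested. None of these genes was called for the siRNA in any of these fits. With depth unknown, what it limits cannot be given.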
